A study of Mus musculus with 24 samples.

Results

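Among 24 D4M tumours, 4 carried RNA of skeletal muscle at levels far above the rest, and these 4 muscle-rich tumours are described here against the other 20. They were chosen by 1 gene, Acta1, the actin of the skeletal muscle thin filament, as the tumours with Acta1 above 1000 CPM, that is counts of the gene per 1000000 counts in the library. D4M is a mouse melanoma line, and the tumours grew in wild-type C57BL/6 mice. Each treatment was given by intraperitoneal injection to 6 tumours labelled as biological replicates. The treatments were BRQ (brequinar, an inhibitor of the pyrimidine synthesis enzyme DHODH) with anti-PD-1 antibody, BRQ with IgG2a antibody, anti-PD-1 antibody alone, and IgG2a antibody alone. The muscle-rich tumours were IgG2a replicate 2, IgG2a replicate 3, PD-1 replicate 6 and BRQ+IgG2a replicate 4, and wherever 4 values are given for muscle-rich tumours they stand in this order. The age of the mice, the place of the tumour in the body and the way the tissue was dissected were not part of the labels used here, and no label ties a tumour to a named animal, so p-values measure the spread between these tumours.

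Skeletal muscle is built of multinucleated fibres whose sarcomeres slide thick myosin filaments along thin actin filaments when calcium is released from the sarcoplasmic reticulum. Fibres are called fast or slow by the myosin heavy chain they use, and fast fibres rely more on stored phosphate and glycogen while slow fibres rely more on mitochondria. A muscle is not made of fibres alone, for it holds capillaries, nerve endings with Schwann cells, fat between the bundles, satellite cells that renew the fibres, and the connective tissue that joins it to tendon.

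Acta1 stood at 4554, 14072, 4171 and 4469 CPM in the muscle-rich tumours, against a lowest, median and highest of 0.0368, 9.09 and 439 CPM in the other tumours. The threshold therefore lay between 4171 CPM in PD-1 replicate 6, the lowest muscle-rich tumour, and 439 CPM in BRQ+IgG2a replicate 1, the highest of the others. No tumour lay between these values, though 3 other tumours were above 100 CPM and 8 were below 1 CPM. Library totals were 22827716 to 28968031 counts in the muscle-rich tumours and 19106205 to 34282319 counts in the other tumours, so 1 CPM rests on 19.1 to 34.3 counts. Genes of the 9 muscle lists took 4.32%, 8.52%, 3.25% and 3.9% of all counts in the muscle-rich tumours, against 0.896% to 1.22% in the other tumours. In bulk tissue, more cells of a type and more RNA per cell cannot be told apart.

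The other 3 genes that mark the muscle-rich tumours were high with Acta1, and none of them had values that overlapped between muscle-rich and other tumours. Ckm, the muscle creatine kinase, stood at 1213, 2404, 533 and 750 CPM in muscle-rich tumours, against a lowest, median and highest of 0, 1.87 and 69.5 CPM in the other tumours. Myh4, the myosin of the fastest fibres, stood at 4866, 8826, 1831 and 2740 CPM in muscle-rich tumours, against 0, 4.36 and 348 CPM in the other tumours. Mylpf, a fast light chain that binds the myosin neck, stood at 772, 1256, 394 and 593 CPM in muscle-rich tumours, against 0.0388, 1.54 and 59.9 CPM in the other tumours. IgG2a replicate 3 was the highest and PD-1 replicate 6 the lowest of the muscle-rich tumours for all 4 markers. Because Acta1 chose the tumours, genes of the muscle lists are a description, and nothing is read from how many of them were called.

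**Figure D1:**
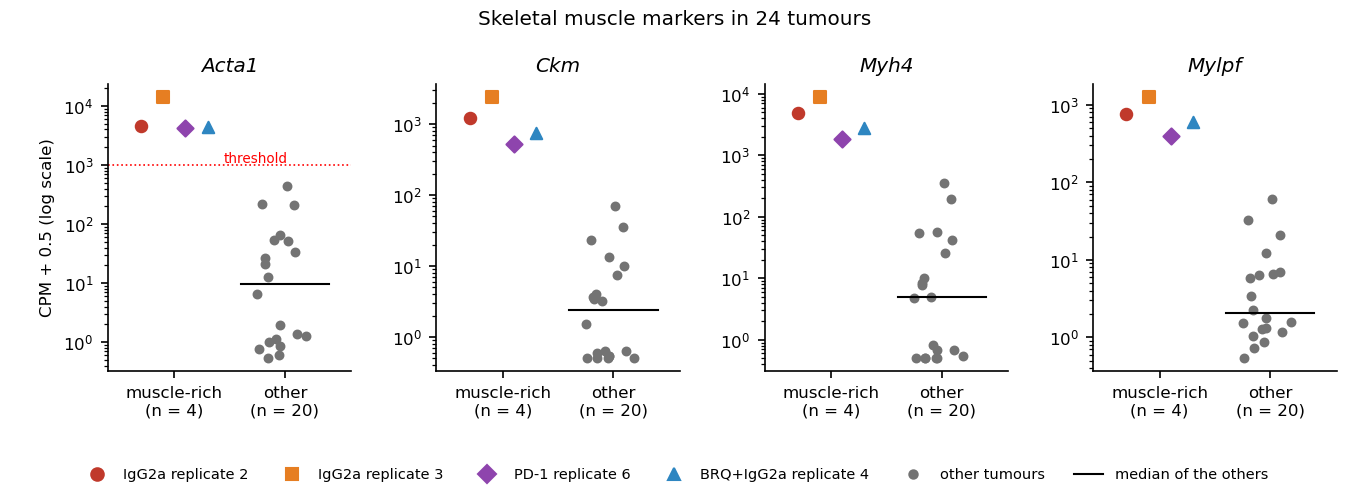
Level of the 4 skeletal muscle markers in each tumour, in CPM with 0.5 added, on log axes. Coloured symbols are the 4 muscle-rich tumours, grey points the 20 other tumours, the black line their median, and the dotted red line the threshold of 1000 CPM on Acta1. For each marker the muscle-rich tumours lie above all the others.

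The 4 markers are shown with the 250 bases before their annotated start sites, because such promoters hold the sites through which muscle genes are usually read. Sequences are from RefSeq on build GRCm38.p6, 5′ to 3′ on the strand of the gene. Capitals mark 4 kinds of match. They are the E-box CANNTG that myogenic factors such as MyoD bind, the CArG box of serum response factor and the binding site of MEF2, all searched on both strands, and TATAAA on the strand of the gene.
Acta1 (chr8:123894776-123895025, minus strand): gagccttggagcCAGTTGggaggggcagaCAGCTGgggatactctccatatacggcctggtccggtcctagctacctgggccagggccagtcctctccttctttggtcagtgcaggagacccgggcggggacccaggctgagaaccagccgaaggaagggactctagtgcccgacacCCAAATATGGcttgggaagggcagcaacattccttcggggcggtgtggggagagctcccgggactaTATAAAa
Ckm (chr7:19410844-19411093, plus strand): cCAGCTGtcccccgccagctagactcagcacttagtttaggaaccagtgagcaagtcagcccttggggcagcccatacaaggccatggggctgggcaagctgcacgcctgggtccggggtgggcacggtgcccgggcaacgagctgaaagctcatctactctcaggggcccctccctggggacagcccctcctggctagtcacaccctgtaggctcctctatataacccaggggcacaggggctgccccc
Myh4 (chr11:67237562-67237811, plus strand): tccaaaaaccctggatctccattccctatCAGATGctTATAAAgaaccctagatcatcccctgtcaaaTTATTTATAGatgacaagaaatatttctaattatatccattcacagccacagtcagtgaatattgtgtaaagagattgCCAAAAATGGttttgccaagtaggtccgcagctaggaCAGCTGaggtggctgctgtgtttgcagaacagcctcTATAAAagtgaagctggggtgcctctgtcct
Mylpf (chr7:127211358-127211607, plus strand): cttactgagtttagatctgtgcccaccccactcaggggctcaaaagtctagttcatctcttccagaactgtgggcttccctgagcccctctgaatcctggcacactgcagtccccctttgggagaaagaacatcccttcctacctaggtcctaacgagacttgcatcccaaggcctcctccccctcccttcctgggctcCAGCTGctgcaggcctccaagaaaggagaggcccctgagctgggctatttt

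The Acta1 window held 2 E-boxes, 238 and 221 bases before the start, a CArG box at 73 bases and a TATAAA at 7 bases. In Myh4 the window held E-boxes at 221 and 67 bases, a CArG box at 104, a MEF2 site at 182 and TATAAA at 213 and 31 bases. The windows of Ckm and Mylpf each held 1 E-box, at 249 and 51 bases, and none of the other 3 motifs. Over 27025 mouse promoter windows of this length, 66% held an E-box, 1.4% a CArG box, 3.01% a MEF2 site and 8.12% a TATAAA. An E-box is thus common in any promoter of this length, while a CArG box is seldom met. These matches describe the sequence and were not measured as binding.

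Genes of the sarcomere were higher almost without exception. List counts here and below cover only the genes that also passed the expression filter by treatment group, since a gene that passed through the 4 muscle-rich tumours alone had to differ. All 14 genes of the thick filament list had a higher level in muscle-rich tumours, with a median log2 fold change of 6.80, against a median of -0.01 over all 16656 genes tested. Of the thin filament list 15 of 16 genes were called higher, with a median of 6.26, and of the Z-disc and titin list all 20, with a median of 6.52. Over all genes tested, 11.2% were called higher and 6.44% lower at an edgeR adjusted p under 0.05. The giant spring protein gene Ttn stood at 776, 1647, 539 and 914 CPM in muscle-rich tumours, against a lowest, median and highest of 0.349, 3.66 and 68.7 CPM in the other tumours. Actn3, the Z-disc actinin of fast fibres, stood at 1258, 2369, 676 and 889 CPM in muscle-rich tumours, against 0.479, 3.32 and 71.8 CPM in the other tumours. Tpm1, a tropomyosin that other cell types also make, differed far less, with 2118, 2922, 1235 and 1792 CPM in muscle-rich tumours, against 498, 587 and 812 CPM in the other tumours. Tnnc2, the fast troponin C, was at 3, 6, 2 and 3 counts in the muscle-rich libraries and at 3 counts in all other libraries together, although the fast troponin T gene Tnnt3 stood at 1628, 3464, 869 and 987 CPM in the same muscle-rich tumours.

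The 4 tumours did not carry the same mix of fibre types. Per kilobase of exon, Myh4 led in each, and its share of the summed myosin heavy chain level was 92.1%, 76.2%, 57.8% and 55.2% in the muscle-rich tumours. Myh1, the myosin of the next fast type, made up 6.8%, 19.5%, 31% and 31.4%. Myh2, of fast fibres rich in mitochondria, made up 0.126%, 2.88%, 8.42% and 10.3%, and its level of 7.91 CPM in IgG2a replicate 2 was far below the 396, 316 and 608 CPM of the other muscle-rich tumours. IgG2a replicate 2 was thus the tumour of almost pure Myh4, while PD-1 replicate 6 and BRQ+IgG2a replicate 4 held the most Myh1 and Myh2.

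Slow-fibre genes set the same tumour apart. Myh7, the slow myosin, had 6, 4999, 2647 and 1984 counts in the muscle-rich libraries, against 9 counts in the 20 other libraries together. The slow light chain gene Myl2 had 0, 1719, 679 and 607 counts in muscle-rich libraries, against 31 in all others together, and Myl3 had 0, 1226, 357 and 151, against 2. IgG2a replicate 2 therefore held almost no slow myosin RNA, which the other 3 muscle-rich tumours did hold. Tnnc1, the slow troponin C, was present in all 4 at 325, 1304, 554 and 1119 counts. Heart muscle shares Myh7, Myl2 and Myl3 with slow fibres, but the defining heart genes had few counts in the muscle-rich libraries. Myh6 had 6, 31, 9 and 10 counts in them, against 11 in the 20 others together and at most 2 in any of them. Nppa had 0, 0, 3 and 1 counts and Myl7 had 0, 0, 3 and 0, against 3 counts of each in all others together.

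**Figure D2:**
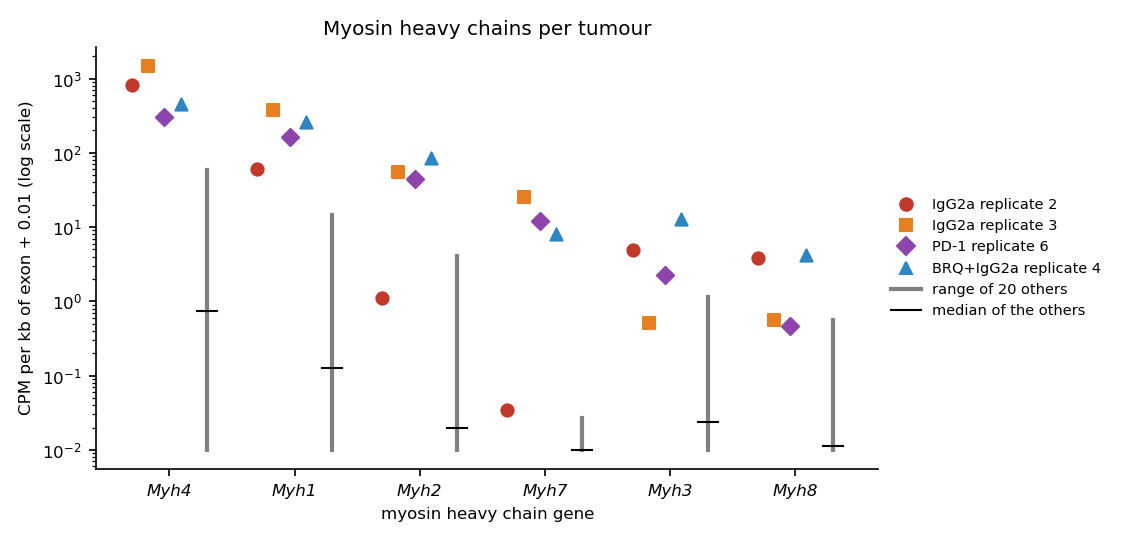
Level of 6 myosin heavy chain genes per kilobase of exon in CPM, with 0.01 added, on a log axis. Coloured symbols are the 4 muscle-rich tumours, each grey bar is the range of the 20 other tumours and the black line their median. Myh4 is highest in each muscle-rich tumour, and Myh2 and Myh7 are low in IgG2a replicate 2.

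Myosins of developing fibres followed another order. Myh3, the embryonic myosin, stood at 29.3, 3.07, 13.6 and 78.2 CPM in muscle-rich tumours, against a lowest, median and highest of 0, 0.0844 and 6.97 CPM in the other tumours. Myh8, the perinatal myosin, stood at 45.2, 6.53, 5.36 and 50.2 CPM in muscle-rich tumours, against 0, 0.0146 and 6.44 CPM in the other tumours. Both were highest in BRQ+IgG2a replicate 4 and IgG2a replicate 2, and in both genes 1 other tumour reached the lowest muscle-rich tumour. Genes of early and repairing fibres, picked out after their values were seen, were high in the same pair of tumours. Mymk, which fuses muscle precursors, stood at 5.59, 0.526, 1.52 and 7.17 CPM in the muscle-rich tumours, Chrng, the fetal subunit of the acetylcholine receptor, at 4.52, 0.35, 0.855 and 4.18 CPM, and Actc1, an actin of heart and of developing muscle, at 29.7, 6.26, 4.28 and 28 CPM. The highest of the other tumours reached 0.412 CPM of Mymk, 1.01 CPM of Chrng and 2.81 CPM of Actc1.

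The calcium release system of the fibre came with the sarcomere. Of 23 genes of the excitation-contraction coupling list, 21 were called higher, with a median log2 fold change of 6.22. Atp2a1, the fast calcium pump of the sarcoplasmic reticulum, stood at 2188, 5468, 1274 and 1803 CPM in muscle-rich tumours, against a lowest, median and highest of 0.0388, 3.69 and 144 CPM in the other tumours. Ryr1, the calcium release channel, stood at 491, 1222, 431 and 440 CPM in muscle-rich tumours, against 0.232, 1.3 and 29.2 CPM in the other tumours. Atp2a2, the pump of slow fibres and of most other cells, overlapped widely, with 386, 532, 486 and 515 CPM in muscle-rich tumours, against 372, 479 and 701 CPM in the other tumours.

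Energy enzymes used by the fibre were called higher in 23 of 26 genes, with a median log2 fold change of 5.45. Myoglobin, Mb, which stores oxygen and was picked out after its values were seen, stood at 13.3, 94.7, 29 and 63.3 CPM in muscle-rich tumours, against a lowest, median and highest of 0, 0.0862 and 2.44 CPM in the other tumours. It was lowest in IgG2a replicate 2, the tumour with almost no slow myosin. Aldoa, the aldolase that most cells use, stood at 2868, 4050, 1771 and 1949 CPM in muscle-rich tumours, against 954, 1255 and 1604 CPM in the other tumours.

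Regulators of the muscle lineage were lower in level. Of 14 genes of the myogenic factor and satellite cell list 9 were called higher and 1, Pax3, was called lower, with a median log2 fold change of 1.96. With Acta1 above 100 CPM as the rule, 2 of 9 tested genes were called higher. Pax7, the factor of satellite cells, stood at 0.863, 0.964, 0.778 and 1.27 CPM in muscle-rich tumours, against a lowest, median and highest of 0, 0 and 0.116 CPM in the other tumours, and Myog, the factor of differentiating fibres, at 10, 3.68, 6.03 and 8.26 CPM, against 0, 0 and 1.24 CPM. Pax3, which melanoma cells also use, stood at 16.6, 13.4, 13.6 and 16 CPM in muscle-rich tumours, against 16.5, 21.1 and 25.9 CPM in the other tumours. These 3 genes were picked out after their values were seen. Mef2c, a factor of muscle and of several other lineages, overlapped at 150, 208, 90.5 and 216 CPM in muscle-rich tumours, against 41.4, 89.3 and 161 CPM in the other tumours.

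Genes of the muscle side of the nerve junction were called higher in 5 of 12 genes, and 1, the adhesion gene Ncam1, was called lower. Their median log2 fold change was 0.33. Ncam1 stood at 258, 227, 175 and 234 CPM in muscle-rich tumours, against a lowest, median and highest of 166, 297 and 383 CPM in the other tumours, and its call was lost in 7 of the 24 fits that left out 1 tumour. Of the muscle wasting list 6 of 16 genes were called higher and 1 lower. The ligase genes of fibre breakdown were among the higher ones. Fbxo32 stood at 84.3, 170, 86.7 and 57.1 CPM in muscle-rich tumours, against 18.8, 32.8 and 42.6 CPM in the other tumours, and Trim63, picked out after its values were seen, at 75.2, 62.6, 33.8 and 20 CPM, against 0, 0.0424 and 3.82 CPM. Of the list of factors that muscle secretes 4 of 10 genes were called higher, among them Mstn, which limits muscle growth, at 4.69, 11.2, 2.06 and 2.35 CPM in muscle-rich tumours, against 0, 0 and 0.589 CPM in the other tumours. Mstn was picked out after its values were seen, and the matrix gene Sparc of the same list overlapped at 1489, 1657, 2150 and 1553 CPM in muscle-rich tumours, against 1192, 1358 and 1637 CPM in the other tumours.

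Outside the muscle lists, 1743 of 16495 genes, 10.6%, were called higher and 1070, 6.49%, lower in muscle-rich tumours. These genes were tested with edgeR's quasi-likelihood test with treatment group as a covariate, and adjusted p-values are by Benjamini-Hochberg over all genes tested. Over the 16029 genes that passed the filter by treatment group, 10.4% were called higher and 6.67% lower. In 4.51% of all genes tested all 4 muscle-rich tumours lay above all 20 others, and in 0.913% below. Some genes of the muscle fibre are on no muscle list and are among those called higher, and these follow the choice by Acta1.

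**Figure D3:**
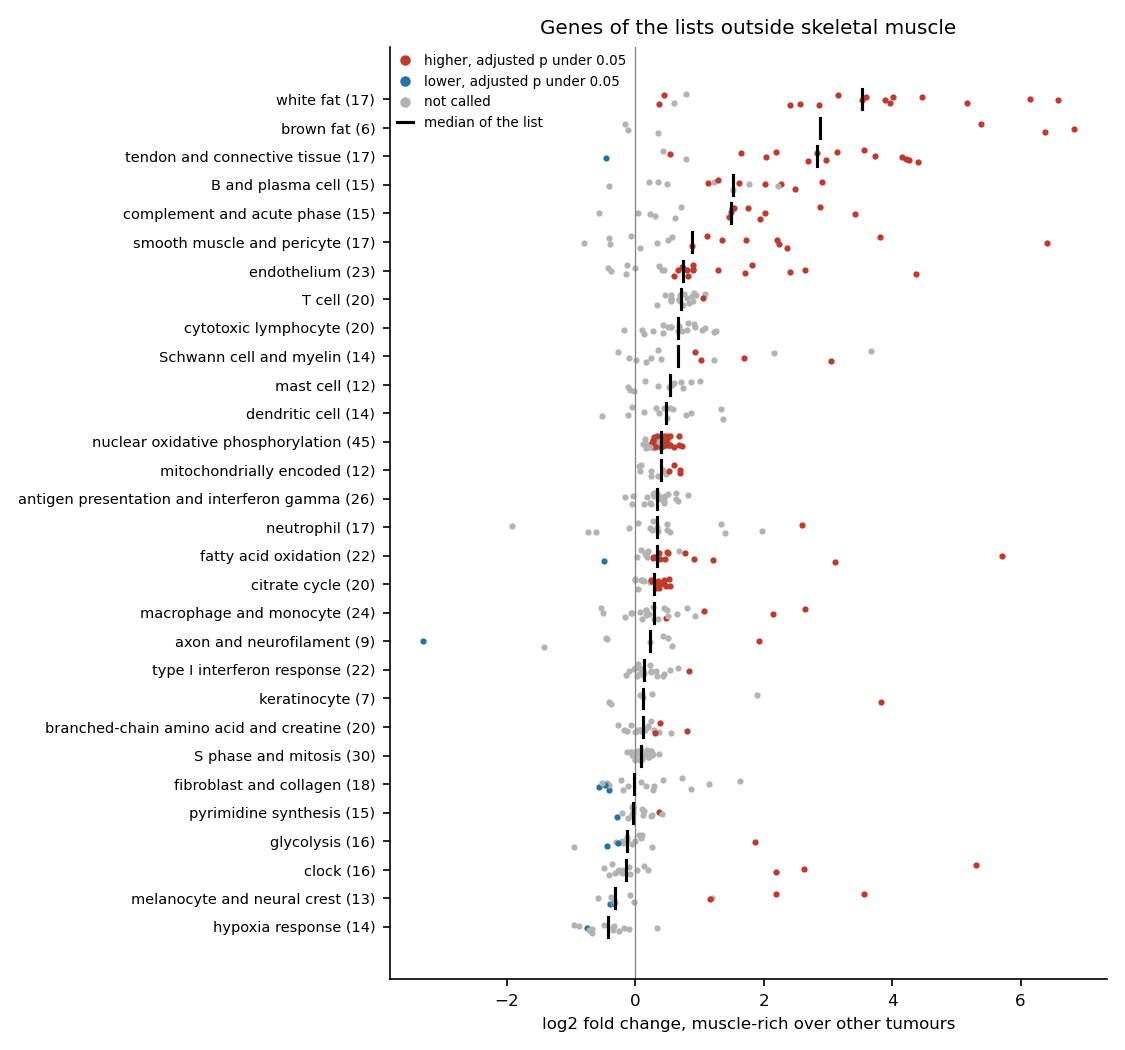
Log2 fold change of each tested gene of the 30 lists outside skeletal muscle, muscle-rich over other tumours, from the edgeR fit, with lists ordered by their median over all tested genes and the number of genes tested in brackets. Red points were called higher and blue points lower at an adjusted p under 0.05, grey points were not called, and the black line is the median. White fat and tendon genes have the higher medians of 3.52 and 2.83 among lists of more than 10 genes. Over the genes that passed the filter by treatment group, these medians of white fat and tendon are 3.34 and 2.76. Some lists share genes with the muscle lists, as white fat does with Slc2a4 and Car3, and its median is 3.15 without them. Fibroblast, S phase and hypoxia genes lie at or below about 0.

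Fat went with muscle. Of 14 white fat genes 12 were called higher and none lower, and their median log2 fold change was 3.34. The summed level of the list was 445, 1858, 850 and 779 CPM in muscle-rich tumours, against a lowest, median and highest of 88.5, 111 and 196 CPM in the other tumours. The sums of the groups did not overlap, but some genes of the list serve muscle as well as fat. The sums include Slc2a4 and Car3, both on the muscle energy list, and so follow the choice by Acta1 in part. Of all 15 tested genes on no muscle list, including any that passed through the muscle-rich tumours alone, 13 were called higher (median 3.15). Slc2a4, the insulin-regulated glucose transporter of both tissues, is also on the muscle energy list and stood at 33.7, 70.4, 12.7 and 21.9 CPM in muscle-rich tumours, against 0.0464, 0.315 and 2.24 CPM in the other tumours. Plin4, a lipid droplet coat protein of fat and muscle, stood at 12.8, 52.3, 26.6 and 14 CPM in muscle-rich tumours, against 0, 0.362 and 2.04 CPM in the other tumours (log2 fold change 5.16 ± 0.64 SE, edgeR adjusted p = 3.2e-06).

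The genes that define fat cells were low in level and were higher too. Adipoq, which encodes the fat hormone adiponectin, stood at 0.967, 2.72, 8.4 and 1.65 CPM in muscle-rich tumours, against a lowest, median and highest of 0, 0.162 and 1.08 CPM in the other tumours (log2 fold change 3.59 ± 0.71 SE, edgeR adjusted p = 0.0008). PD-1 replicate 6 was the highest, and 2 other tumours lay above IgG2a replicate 2, the lowest muscle-rich tumour. Cidec, which enlarges lipid droplets, stood at 1.24, 2.8, 6.1 and 0.984 CPM in muscle-rich tumours, against 0, 0 and 0.889 CPM in the other tumours (3.96 ± 0.86 SE, edgeR adjusted p = 0.002). Plin1, the droplet coat of fat cells, stood at 1.31, 1.84, 8.01 and 1.76 CPM in muscle-rich tumours, against 0, 0.0567 and 1.14 CPM in the other tumours, and its call was lost without PD-1 replicate 6. The tumour highest in these 3 genes was PD-1 replicate 6, which was the lowest of the 4 in Acta1.

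Fabp4, a fatty acid carrier of fat cells and capillaries, stood at 32.6, 50.8, 71.5 and 25.2 CPM in muscle-rich tumours, against a lowest, median and highest of 2.85, 8.62 and 17.2 CPM in the other tumours (log2 fold change 2.42 ± 0.33 SE, edgeR adjusted p = 8.3e-06). Over all 17 white fat genes tested in the main fit, 15 were called higher. Without PD-1 replicate 6, 10 of 17 tested white fat genes were called higher, with a median of 3.08, and 9 of 17 were among the PD-1 and BRQ+IgG2a tumours alone. Brown fat was not seen by its defining gene. Ucp1 had 1, 0, 0 and 0 counts in the muscle-rich libraries and 4 counts in the 20 other libraries together. The brown fat genes called higher, Fabp3 and Cox8b, are also muscle genes, and Ppargc1a, a regulator of mitochondria in both tissues, passed the filter through the muscle-rich tumours alone.

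Tendon and loose connective tissue were also richer in these tumours. Of 16 genes 13 were called higher and 1, the tendon factor Mkx, lower (a call lost without PD-1 replicate 6), and their median log2 fold change was 2.76. The summed level was 237, 389, 896 and 744 CPM in muscle-rich tumours, against a lowest, median and highest of 62.1, 99.2 and 231 CPM in the other tumours. Col14a1, a collagen of tendon and muscle sheath, stood at 13.2, 35.6, 134 and 78.5 CPM in muscle-rich tumours, against 3.11, 8.62 and 23.2 CPM in the other tumours (2.83 ± 0.41 SE, edgeR adjusted p = 2.9e-05). Comp, a matrix protein of tendon and cartilage, stood at 3.38, 2.94, 28.7 and 16.7 CPM in muscle-rich tumours, against 0.233, 1.01 and 3.05 CPM in the other tumours (3.74 ± 0.45 SE, edgeR adjusted p = 1.4e-06). PD-1 replicate 6 and BRQ+IgG2a replicate 4 were the highest in both, so the order was not that of Acta1.

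Fmod, which organises tendon collagen and was picked out after its values were seen, stood at 5.21, 12.8, 27.1 and 24.5 CPM in muscle-rich tumours, against a lowest, median and highest of 0, 0.715 and 2.25 CPM in the other tumours (log2 fold change 4.22 ± 0.65 SE, edgeR adjusted p = 5.4e-05). The tendon marker Tnmd, which passed the filter through the muscle-rich tumours alone, was at 0.552, 1.58, 1.13 and 2.21 CPM, against 0, 0 and 0.277 CPM in the other tumours. Scx, the tendon lineage factor, stood at 17.6, 13.5, 10.5 and 14.3 CPM in muscle-rich tumours, against 6.52, 9 and 14.2 CPM in the other tumours (0.54 ± 0.17 SE, edgeR adjusted p = 0.026), and its call was lost when IgG2a replicate 2 or BRQ+IgG2a replicate 4 was left out. Over all 17 genes of the list tested in the main fit, 14 were called higher. Among the IgG2a tumours alone, 4 of 18 tested genes of the list were called higher, and among the PD-1 and BRQ+IgG2a tumours alone 12 of 17.

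Genes of the fibroblast and collagen list did not follow. None of 18 was called higher and 3 were called lower, with a median log2 fold change of -0.01. Connective tissue genes such as Pi16, Dpt and Mfap5 were counted on the tendon list and were called higher, so this list does not stand for all fibroblast genes. Pdgfra, the receptor of platelet-derived growth factor on fibroblasts that tumour cells can share, stood at 327, 210, 241 and 423 CPM in muscle-rich tumours, against a lowest, median and highest of 322, 425 and 536 CPM in the other tumours (-0.47 ± 0.12 SE, edgeR adjusted p = 0.0056). The collagen genes Col6a1 and Col6a3 fell by 0.57 ± 0.14 and 0.40 ± 0.13 on the log2 scale (edgeR adjusted p = 0.0072 and 0.029). The calls of all 3 were lost without PD-1 replicate 6, and that of Col6a3 also without IgG2a replicate 2, IgG2a replicate 3 or IgG2a replicate 6.

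Vessel genes were higher by a smaller factor. Of 23 endothelial genes 15 were called higher and none lower, with a median log2 fold change of 0.75. Tek, the receptor of angiopoietins, stood at 7.11, 13.5, 11.9 and 10.6 CPM in muscle-rich tumours, against a lowest, median and highest of 1.73, 3.27 and 4.45 CPM in the other tumours (1.82 ± 0.18 SE, edgeR adjusted p = 1e-07). Pecam1, a junction protein of all endothelium, stood at 72.2, 87.9, 103 and 80.1 CPM in muscle-rich tumours, against 40.3, 56.7 and 87.8 CPM in the other tumours (0.75 ± 0.15 SE, edgeR adjusted p = 0.0012), and 3 other tumours lay above the lowest muscle-rich one. Sox18, a factor of vessel growth, stood at 22.2, 23.7, 25.6 and 13.7 CPM in muscle-rich tumours, against 7.76, 11.5 and 17.4 CPM in the other tumours (0.82 ± 0.16 SE, edgeR adjusted p = 0.00059).

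The marker Kdr, a receptor of vascular growth factor, was higher by 0.60 ± 0.16 SE (edgeR adjusted p = 0.0087), a call lost without IgG2a replicate 3 and without PD-1 replicate 6. Cdh5, the endothelial cadherin, missed the threshold at 93.6, 151, 135 and 97.2 CPM in muscle-rich tumours, against a lowest, median and highest of 72.4, 92 and 139 CPM in the other tumours (0.36 ± 0.18 SE, edgeR adjusted p = 0.17). Without PD-1 replicate 6 the count of endothelial genes called higher was 7 of 23, with a median of 0.58. Among the IgG2a tumours alone 5 were called higher and 1 lower. With Acta1 above 100 CPM as the rule 5 of 22 were called higher and 1 lower, with a median of 0.36, and the call of Pecam1 was lost under both. The summed level of the list did not differ in the same way, at 1819, 1942, 1934 and 1951 CPM in muscle-rich tumours, against 1377, 2110 and 2555 CPM in the other tumours. It is led by the water channel Aqp1, at 907, 847, 757 and 1069 CPM in muscle-rich tumours, against 570, 1277 and 1597 CPM in the other tumours.

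Smooth muscle and pericyte genes were called higher in 9 of 17, none lower. Their median log2 fold change was 0.89, and 1 of the 9, Des, is also a Z-disc gene of skeletal muscle. The actin-bundling gene Synpo2, which skeletal muscle uses too, stood at 77, 145, 74.4 and 119 CPM in muscle-rich tumours, against a lowest, median and highest of 2.81, 7.78 and 24.1 CPM in the other tumours (3.80 ± 0.38 SE, edgeR adjusted p = 1.9e-07). Lmod1, a smooth muscle actin nucleator, stood at 1.66, 3.02, 3.89 and 1.83 CPM in muscle-rich tumours, against 0.105, 0.456 and 0.967 CPM in the other tumours (2.2 ± 0.35 SE, edgeR adjusted p = 7e-05). Abcc9, a potassium channel subunit of pericytes and of muscle, stood at 30, 71.7, 36.3 and 31.8 CPM in muscle-rich tumours, against 6.77, 11.9 and 21 CPM in the other tumours (1.72 ± 0.28 SE, edgeR adjusted p = 9.4e-05). The defining smooth muscle genes Myh11 and Cnn1 were higher by 2.36 ± 0.52 and 2.24 ± 0.61 on the log2 scale (edgeR adjusted p = 0.0023 and 0.011). Both calls were lost without PD-1 replicate 6, and that of Cnn1 also without BRQ+IgG2a replicate 4. Without PD-1 replicate 6, 5 of the 17 genes of the list were called higher, among the IgG2a tumours alone 3 with 1 lower, and with Acta1 above 100 CPM as the rule 4.

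**Figure D4:**
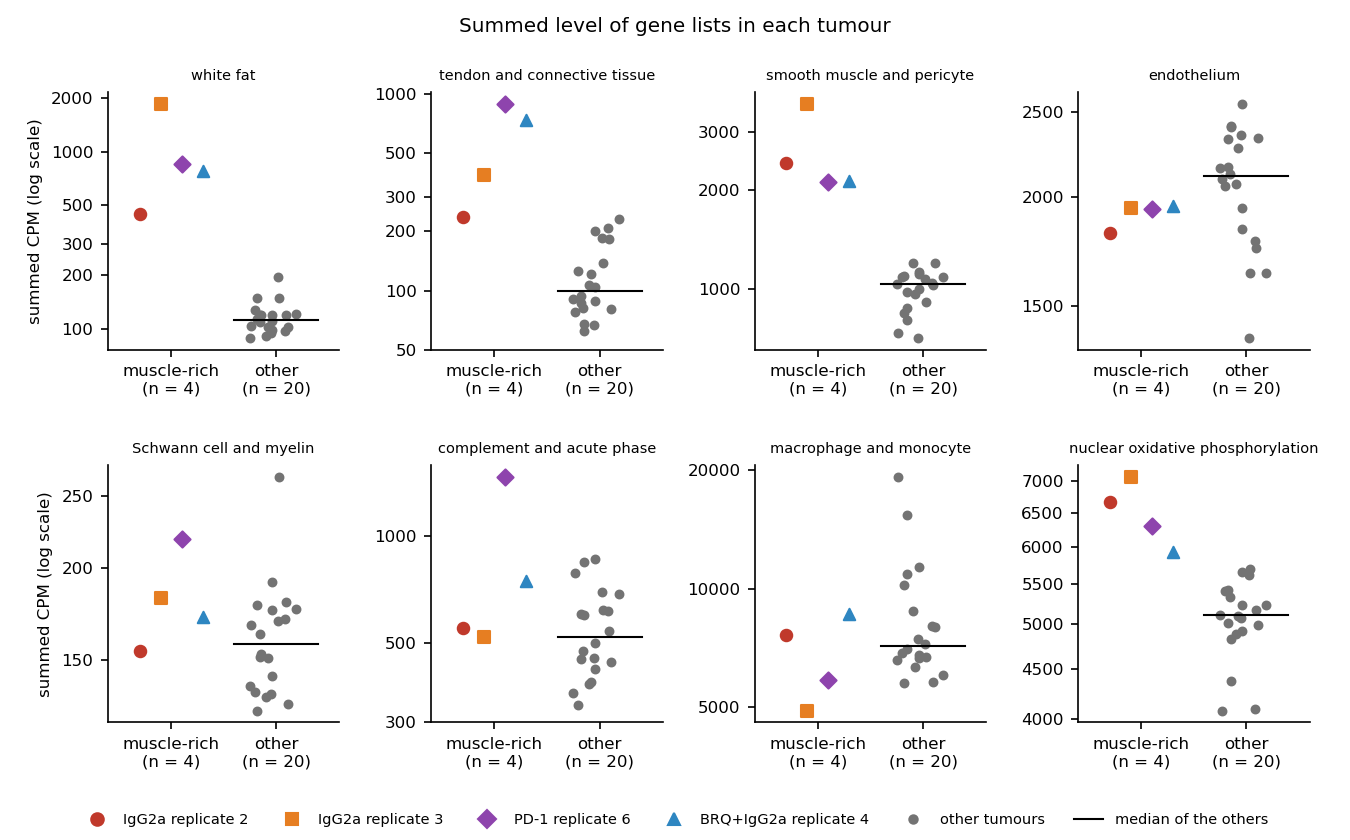
Summed CPM of 8 gene lists in each tumour on log axes. Coloured symbols are the 4 muscle-rich tumours, grey points the 20 other tumours and black lines their medians. The groups do not overlap for white fat, tendon, smooth muscle and nuclear oxidative phosphorylation, the endothelial and Schwann cell sums overlap, and PD-1 replicate 6 stands alone in complement. The white fat sum includes Slc2a4 and Car3, and the smooth muscle sum Des, which are also on muscle lists. Des alone was 2272 of the 3659 CPM of smooth muscle in IgG2a replicate 3. These 2 sums therefore follow the choice by Acta1 in part.

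Nerve genes differed in part. Of 12 Schwann cell and myelin genes 3 were called higher, against 10.4% of all genes, and none lower, and their median log2 fold change was 0.38. The summed level was 154, 182, 219 and 172 CPM in muscle-rich tumours, against a lowest, median and highest of 128, 157 and 266 CPM in the other tumours. Drp2, a scaffold of the Schwann cell membrane, stood at 1.59, 3.24, 5.01 and 3.23 CPM in muscle-rich tumours, against 0.185, 0.963 and 2.42 CPM in the other tumours (1.69 ± 0.36 SE, edgeR adjusted p = 0.0014). The myelin gene Mbp was higher by 0.92 ± 0.26 on the log2 scale (edgeR adjusted p = 0.014), a call lost without PD-1 replicate 6 and without IgG2a replicate 3. None of 12 tested genes of the list was called among the IgG2a tumours alone or with Acta1 above 100 CPM as the rule.

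Prx, which encodes the myelin protein periaxin, overlapped widely at 10.1, 17, 16.9 and 12.7 CPM in muscle-rich tumours, against a lowest, median and highest of 8.81, 13.3 and 22.8 CPM in the other tumours (log2 fold change 0.17 ± 0.15 SE, edgeR adjusted p = 0.49), and Pmp2 was at 0 counts in all 4 muscle-rich libraries. Of 7 axon genes 1 was called higher, against 10.4% of all genes, and 1 lower, against 6.67%. Uchl1, a ubiquitin hydrolase of neurons, stood at 6.14, 2.37, 3.46 and 5.45 CPM in muscle-rich tumours, against 0.381, 1.05 and 2.27 CPM in the other tumours (1.92 ± 0.30 SE, edgeR adjusted p = 5.5e-05). Nefl, the light neurofilament, was at 0.069, 0, 0 and 0 CPM in muscle-rich tumours, against 0, 0.187 and 0.628 CPM in the other tumours (edgeR adjusted p = 0.039), a call lost in 5 of the fits that left out 1 tumour.

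Most immune lists gave 1 call or none. Of 20 T cell genes 1 was called, of 20 cytotoxic lymphocyte genes none, of 14 dendritic cell genes none, of 12 mast cell genes none and of 26 antigen presentation genes none. Their median log2 fold changes were 0.72, 0.67, 0.47, 0.55 and 0.34. Without the treatment covariate these medians were 0.02, 0.06, 0.22, -0.05 and -0.22, so those of the mast cell and antigen presentation lists changed sign, as did that of antigen presentation, at -0.04, among the PD-1 and BRQ+IgG2a tumours alone. The T cell call was Lat, a signalling adaptor, at 4.11, 1.8, 4.35 and 3.87 CPM in muscle-rich tumours, against a lowest, median and highest of 0.603, 2.26 and 7.95 CPM in the other tumours (1.05 ± 0.36 SE, edgeR adjusted p = 0.042). It was lost in 12 of the 24 fits that left out 1 tumour. H2-K1, a class I presentation gene, stood at 1912, 1222, 1746 and 1592 CPM in muscle-rich tumours, against 958, 1653 and 2750 CPM in the other tumours (0.24 ± 0.16 SE, edgeR adjusted p = 0.34). Of 22 type I interferon genes 1, Oas2, was called higher, and that call was lost without IgG2a replicate 2 and without PD-1 replicate 6.

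B cell and complement genes were high in PD-1 replicate 6. Of 14 B and plasma cell genes 7 were called higher, and their median log2 fold change was 1.40. Over all 15 genes tested in the main fit 7 were called, and none of 15 was without PD-1 replicate 6, with a median of 0.42. Among the IgG2a tumours alone 1 of 11 was called higher and 1 lower. Cd79a, part of the B cell receptor, stood at 0.794, 0.438, 13.6 and 0.527 CPM in muscle-rich tumours, against a lowest, median and highest of 0.138, 0.35 and 0.851 CPM in the other tumours. Ighm, the IgM heavy chain, stood at 19.9, 8.32, 123 and 22.6 CPM in muscle-rich tumours, against 3.13, 11.6 and 49.3 CPM in the other tumours. The plasma cell gene Jchain stood at 5.76, 1.23, 7.27 and 2.32 CPM in muscle-rich tumours, against 0.413, 1.35 and 8.17 CPM in the other tumours, and its call was lost without IgG2a replicate 2 or PD-1 replicate 6. The other plasma cell marker, Mzb1, was too low to be tested. It had 2, 2, 0 and 0 counts in the muscle-rich libraries, against 26 in the 20 others together and at most 8 in any of them. In Cd79a and Ighm the other 3 muscle-rich tumours lay within the range of the 20 others, and both calls were lost without PD-1 replicate 6.

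Of 15 complement and acute phase genes 9 were called higher, and their median log2 fold change was 1.49. Of the same list, 1 gene was called without PD-1 replicate 6, and the median was then 0.77. Among the IgG2a tumours alone 2 of 14 were called higher and 1 lower. Hp, the haemoglobin scavenger haptoglobin, which fat also makes, stood at 18.5, 30.3, 176 and 17.5 CPM in muscle-rich tumours, against a lowest, median and highest of 1.62, 4.15 and 20.1 CPM in the other tumours (3.42 ± 0.58 SE, edgeR adjusted p = 0.00017). Its call held in each of the 24 fits that left out 1 tumour. Serping1, the inhibitor of complement C1, stood at 51.7, 87, 244 and 172 CPM in muscle-rich tumours, against 24, 48.2 and 127 CPM in the other tumours, and its call was lost without PD-1 replicate 6.

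Of 24 macrophage genes 4 were called higher, against 10.4% of all genes. Their median log2 fold change was 0.28, and their summed level was 7623, 4900, 5864 and 8612 CPM in muscle-rich tumours, against a lowest, median and highest of 5775, 7139 and 19180 CPM in the other tumours. With log2 Acta1 as a number over all 24 tumours, 9 were called higher and 1 lower. The 4 were Itgam, an integrin of myeloid cells, Ly6c2, a monocyte antigen, and a pair of genes of resident macrophages, and the calls of Itgam and Ly6c2 were lost in 5 and 11 of the 24 fits that left out 1 tumour. Lyve1, a hyaluronan receptor of these cells and of lymphatic vessels, stood at 5.42, 15.8, 38.3 and 4.04 CPM in muscle-rich tumours, against 0.332, 1.36 and 6.07 CPM in the other tumours (2.64 ± 0.54 SE, edgeR adjusted p = 0.0012). Cd163, the receptor that clears haemoglobin, stood at 12.7, 20.1, 79.1 and 9.91 CPM in muscle-rich tumours, against 0.907, 4.23 and 16.9 CPM in the other tumours (2.14 ± 0.45 SE, edgeR adjusted p = 0.0018). PD-1 replicate 6 was the highest in both, and without it none of the 24 genes was called. Of 17 neutrophil genes 1, the chemokine Cxcl5, was called higher, with 0.173, 0.307, 13.8 and 0.457 CPM in muscle-rich tumours, against 0, 0.165 and 1.03 CPM in the other tumours, and the call was lost without PD-1 replicate 6.

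RNA of nuclear genes of mitochondrial respiration was higher by a small factor. Of 45 nuclear genes of oxidative phosphorylation 36 were called higher and none lower, with a median log2 fold change of 0.40. All 45 had a positive fold change, and in 17 the muscle-rich tumours lay above all others. The summed level was 6655, 7067, 6291 and 5918 CPM in muscle-rich tumours, against a lowest, median and highest of 4079, 5103 and 5690 CPM in the other tumours. Ndufa4, a subunit of the respiratory chain, stood at 76.7, 85.3, 72.1 and 65.3 CPM in muscle-rich tumours, against 25.2, 43.9 and 55.6 CPM in the other tumours (0.73 ± 0.10 SE, edgeR adjusted p = 1.1e-05). Without PD-1 replicate 6, 31 of the 45 genes were called higher, among the IgG2a tumours alone 32, and among the PD-1 and BRQ+IgG2a tumours alone 10. With Acta1 above 100 CPM as the rule 7 were called higher, the median was 0.20, and the call of Ndufa4 was lost.

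Of 12 genes of the mitochondrial genome 4 were called higher and none lower, with a median log2 fold change of 0.39. The summed level of the list overlapped, at 17269, 18641, 15358 and 19600 CPM in muscle-rich tumours, against 10852 to 20562 CPM in the other tumours. mt-Nd4, a complex I subunit, stood at 1508, 1641, 1321 and 1559 CPM in muscle-rich tumours, against a lowest, median and highest of 789, 977 and 1554 CPM in the other tumours (0.69 ± 0.13 SE, edgeR adjusted p = 0.00029). The citrate cycle gave 13 of 20 genes higher and none lower, with a median of 0.29, and 4 of 20 higher among the PD-1 and BRQ+IgG2a tumours alone. Ogdh, a dehydrogenase of the cycle, stood at 258, 361, 267 and 307 CPM in muscle-rich tumours, against 183, 211 and 254 CPM in the other tumours (0.53 ± 0.09 SE, edgeR adjusted p = 8.8e-05).

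Fatty acid oxidation had 13 of 22 genes called higher and 1 lower, and their median log2 fold change was 0.34. Among the PD-1 and BRQ+IgG2a tumours alone 5 of 22 were called higher. Cd36, the fatty acid uptake receptor of muscle, fat and capillaries, stood at 15.3, 69.1, 47.4 and 32.2 CPM in muscle-rich tumours, against a lowest, median and highest of 1.5, 5.12 and 7.83 CPM in the other tumours (3.10 ± 0.31 SE, edgeR adjusted p = 1e-07). Ucp3, the uncoupling protein of muscle, stood at 2.52, 4.86, 2.41 and 2.5 CPM in muscle-rich tumours, against 0, 0 and 0.629 CPM in the other tumours (5.71 ± 0.77 SE). As a muscle gene Ucp3 follows the choice by Acta1 and is a description. The gene called lower was Cpt1a, the carnitine transferase of liver and many other tissues, at 83, 67.9, 68.7 and 94.5 CPM in muscle-rich tumours, against 81.8, 111 and 156 CPM in the other tumours (-0.48 ± 0.15 SE, edgeR adjusted p = 0.031). It was picked out after its values were seen, and its call was lost without IgG2a replicate 2, IgG2a replicate 3, IgG2a replicate 4 or PD-1 replicate 6. The share of counts from the muscle lists was also higher in the muscle-rich tumours, and its part in these metabolic differences was not tested.

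Glycolysis outside the muscle enzymes gave few calls, with a median log2 fold change of -0.13. Of 16 genes 1 was called higher, against 10.4% of all genes, and 2 lower, against 6.67%. Their summed level overlapped, at 10912, 11249, 10432 and 10343 CPM in muscle-rich tumours, against 9637, 10984 and 13694 CPM as the lowest, median and highest of the others. Ldhb, the lactate dehydrogenase subunit of oxidative tissue, stood at 6.73, 35.1, 9.68 and 13.2 CPM in muscle-rich tumours, against a lowest, median and highest of 2.58, 4.55 and 7.41 CPM in the other tumours (1.87 ± 0.33 SE, edgeR adjusted p = 0.00019). Pgam1, the general phosphoglycerate mutase, stood at 296, 290, 246 and 338 CPM in muscle-rich tumours, against 304, 383 and 474 CPM in the other tumours (-0.44 ± 0.12 SE, edgeR adjusted p = 0.015), a call lost without PD-1 replicate 6. Eno1, the general enolase, fell by 0.27 ± 0.09 on the log2 scale (edgeR adjusted p = 0.035), a call lost in 5 of the fits that left out 1 tumour. In branched-chain amino acid and creatine metabolism 3 of 20 genes were called higher, against 10.4% of all genes, and none lower. The call of Bckdk was lost without IgG2a replicate 3, and that of Aldh6a1 without IgG2a replicate 3 or IgG2a replicate 5. Carnmt1, a carnosine methyltransferase, stood at 41.9, 53.8, 35.1 and 31.2 CPM in muscle-rich tumours, against 18.9, 22.1 and 30.4 CPM in the other tumours (0.80 ± 0.13 SE, edgeR adjusted p = 0.00011).

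Genes of the tumour cells differed in part. The pigment genes Tyr and Dct had 0 counts in all 24 libraries, and the melanocyte factor Mitf stood at 12.8, 13.1, 16.1 and 18.5 CPM in muscle-rich tumours, against a lowest, median and highest of 11.6, 15 and 48.2 CPM in the other tumours. Sox10, the neural crest factor, passed the filter through the muscle-rich tumours alone and stood at 0.138, 1.31, 1.13 and 0.597 CPM in them, against 0, 0.0494 and 1.04 CPM in the other tumours. Of the defining genes of the melanocyte lineage, Mitf was thus the only one of these 4 above 2 CPM in any tumour. Of 12 genes of the melanocyte and neural crest list 2 were called higher, against 10.4% of all genes, and 3 lower, against 6.67%, with a median log2 fold change of -0.32. Erbb3, a neuregulin receptor of melanocytes, Schwann cells and muscle, stood at 3.45, 3.37, 2.45 and 4.39 CPM in muscle-rich tumours, against 0.788, 1.83 and 2.6 CPM in the other tumours (1.16 ± 0.24 SE, edgeR adjusted p = 0.001). Axl, a receptor kinase of invasive melanoma cells, stood at 668, 604, 634 and 795 CPM in muscle-rich tumours, against 777, 875 and 1013 CPM in the other tumours (-0.35 ± 0.08 SE, edgeR adjusted p = 0.0025), a call lost without PD-1 replicate 6.

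None of 30 S phase and mitosis genes was called by edgeR, with a median log2 fold change of 0.10. DESeq2 and limma voom each called 1, and with log2 Acta1 as a number over all 24 tumours 14 were called higher. Top2a, the topoisomerase of dividing cells, stood at 436, 495, 638 and 643 CPM in muscle-rich tumours, against a lowest, median and highest of 234, 583 and 823 CPM in the other tumours (-0.03 ± 0.19 SE, edgeR adjusted p = 0.95). Of 14 hypoxia genes 1 was called lower, with a median of -0.42, and 13 had a negative fold change. With Acta1 above 100 CPM as the rule 8 were called lower, with log2 Acta1 as a number 9, and without the 3 other tumours above 100 CPM, an alternative chosen after seeing the data, 6. The 1 gene was Vegfa, the vessel growth factor, at 171, 124, 99.9 and 113 CPM in muscle-rich tumours, against 127, 212 and 311 CPM in the other tumours (-0.76 ± 0.24 SE, edgeR adjusted p = 0.029), and the call was lost in 4 of the fits that left out 1 tumour. Of 15 genes of pyrimidine synthesis, the pathway that brequinar blocks, 1 was called higher, against 10.4% of all genes, and 1 lower, against 6.67%. Dhodh itself stood at 13.5, 12.8, 11.5 and 13.1 CPM in muscle-rich tumours, against 7.88, 13.2 and 17.7 CPM in the other tumours (-0.06 ± 0.11 SE, edgeR adjusted p = 0.78).

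Clock and skin genes gave few calls. Of 15 clock genes 2 were called higher, against 10.4% of all genes. The call of 1 of them, the clock factor Npas2, was lost when PD-1 replicate 6 or BRQ+IgG2a replicate 4 was left out. Of 7 keratinocyte genes 1, Trp63, was called higher. It stood at 3.42, 3.55, 2.6 and 4.53 CPM in muscle-rich tumours, against a lowest, median and highest of 0, 0.252 and 0.698 CPM in the other tumours (3.82 ± 0.47 SE, edgeR adjusted p = 1.5e-06). Skin was near none by its defining genes, with 0, 0, 0 and 1 counts of Krt5 and 0 counts of Krt14 in the 4 muscle-rich libraries.

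Genes in none of the lists were named by the largest fold changes. The 10 with the highest were Igfn1, Mylk4, Tmem233, Scn4b, Lrrn1, Rpl3l, Fbxo40, Ano5, Art1 and Kcna7, and in each all 4 muscle-rich tumours lay above all others. Mylk4 had passed the filter through the muscle-rich tumours alone. Their log2 fold changes ran to 7.87 for Igfn1, which stood at 32.8, 161, 84.2 and 20.1 CPM in muscle-rich tumours, against a lowest, median and highest of 0, 0.0247 and 4.68 CPM in the other tumours. Several are known from muscle and so follow the choice by Acta1, and like the muscle lists they are a description. Rpl3l, a ribosomal protein of striated muscle, stood at 23.8, 70.5, 12.3 and 17.7 CPM in muscle-rich tumours, against 0, 0.115 and 1.42 CPM in the other tumours (log2 fold change 7.24 ± 0.65 SE). Fbxo40, a ligase adaptor of muscle, was higher by 7.19 ± 0.74, and Ano5, a membrane protein mutated in muscular dystrophy, by 7.06 ± 0.81 on the log2 scale.

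Genes called lower differed by less and were less sure. The 10 with the lowest fold changes were Camk1g, Ptchd1, Negr1, Pcdhb11, Gdnf, Adgrf1, Hist1h2bg, Edil3, Robo2 and Slitrk6, and each overlapped between the groups. Hist1h2bg belongs to a family of near-identical histone genes, and Pcdhb11 to a cluster of similar protocadherins, so that counting could split their reads. Gdnf, a growth factor for neurons, stood at 4.83, 3.24, 1.9 and 3.97 CPM in muscle-rich tumours, against a lowest, median and highest of 2.85, 9.96 and 22.1 CPM in the other tumours (-1.53 ± 0.32 SE, edgeR adjusted p = 0.0012). Slitrk6, a membrane protein of neurons, stood at 13.3, 8.98, 5.48 and 18.2 CPM in muscle-rich tumours, against 10.6, 32.3 and 61.2 CPM in the other tumours (-1.34 ± 0.28 SE, edgeR adjusted p = 0.0015). Gdnf, Ptchd1 and Slitrk6 kept their calls in each fit that left out 1 tumour, and the other 7 lost theirs in some, in each case when PD-1 replicate 6 was left out. Without PD-1 replicate 6, 211 genes in all were called lower, against 1073 with it, and 1257 were called higher, against 1870 with it.

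Below the threshold, Acta1 also varied among the 20 other tumours, and that variation was not used to choose the muscle-rich ones. A slope on log2 Acta1 CPM, with treatment as covariate, was fitted to 16179 genes. At an edgeR adjusted p under 0.05 it was called higher than 0 in 167, 1.03%, and lower in 72, 0.445%. Of the 167 genes 62 were in a muscle list, 1 of them Acta1 itself, whose slope on its own level is no result. Outside the muscle lists 105 of 16045 genes, 0.654%, were called as rising with Acta1, and 69 of the 16045, 0.43%, as falling. Of the 105 rising genes 66, or 62.9%, were also called higher in muscle-rich tumours, against 10.6% of all genes outside the muscle lists. The 66 made up 3.79% of the genes outside the muscle lists that were called higher there. The highest slopes outside all lists, named by the rule used for the fold changes, belonged to genes of the fibre such as Myo18b, a sarcomere-bound myosin, with 1.10 ± 0.06 SE log2 units per log2 unit of Acta1 (edgeR adjusted p = 1e-10). Eef1a2, the elongation factor of muscle and nerve, had a slope of 1.10 ± 0.05 (edgeR adjusted p = 3.5e-12), and its level was 238, 486, 162 and 176 CPM in muscle-rich tumours, against at most 21.6 CPM in the other tumours. The total of 239 slopes was 82 without BRQ+IgG2a replicate 1, which had the highest Acta1 of the 20, 124 when BRQ+PD-1 replicate 2 was left out, and 148 when BRQ+PD-1 replicate 4 was. It was 429 when BRQ+IgG2a replicate 2 was left out, and 449 when BRQ+PD-1 replicate 5 was.

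Genes of fat, vessel and respiration gave few slopes that passed the test. Of the white fat list 1 gene had a higher slope, Car3, a carbonic anhydrase that is also on the muscle energy list. Of the tendon list 3 had one, Col14a1 at 0.16 ± 0.03 (edgeR adjusted p = 0.015), the plasminogen-binding gene Clec3b at 0.42 ± 0.09 (edgeR adjusted p = 0.015) and Fmod. The calls of Col14a1 and Clec3b were lost without BRQ+IgG2a replicate 1, that of Col14a1 also without BRQ+PD-1 replicate 2, and that of Fmod in 10 of the 20 fits that left out 1 tumour. None of the 45 nuclear oxidative phosphorylation genes had a slope that passed the test, nor did any gene of the Schwann cell, citrate cycle or fatty acid oxidation lists. Ndufa4 had a slope of 0.00 ± 0.01 and Pecam1 of -0.04 ± 0.02 (edgeR adjusted p = 0.93 and 0.29). In the endothelium list none rose and 2, Aqp1 and Vwf, the clotting factor carrier, fell with Acta1. Of the S phase list the replication genes Mcm4, Mcm2, Rrm2 and Mcm3 rose, with slopes of 0.06 or 0.07, and of the hypoxia list Bnip3, Ankrd37, Bhlhe40 and Ndrg1 fell. Bnip3, a mitophagy gene, had a slope of -0.12 ± 0.02 (edgeR adjusted p = 0.0039) that held in each of the 20 fits that left out 1 tumour. The calls of the other 9 genes of these 3 lists were each lost in at least 1 such fit, all of them without BRQ+IgG2a replicate 1.

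**Figure D5:**
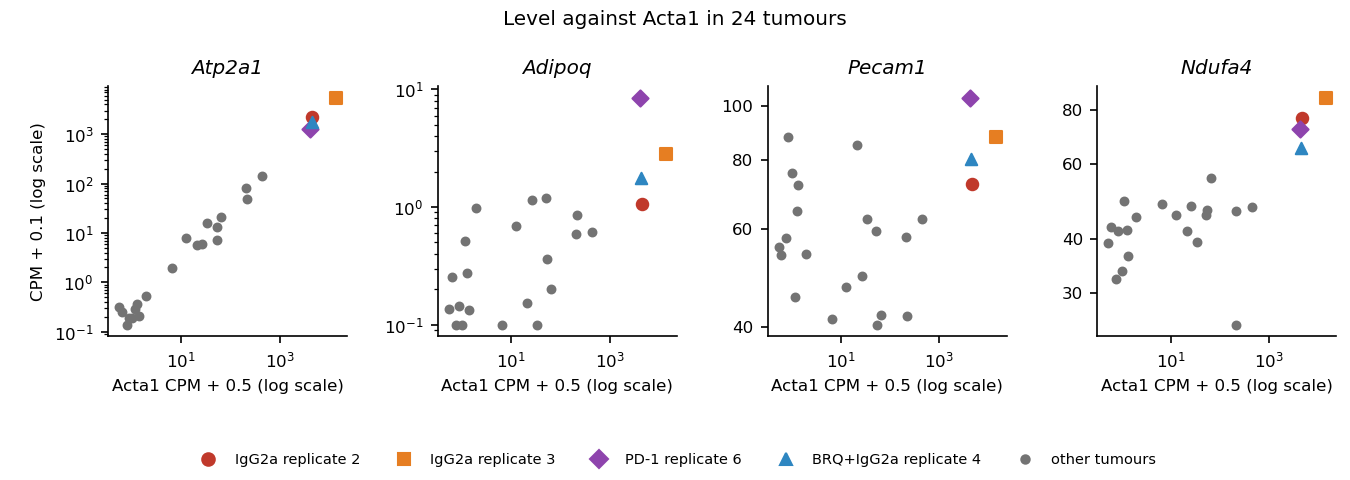
Level of 4 genes against Acta1 in all 24 tumours, on log axes, with 0.1 added to the CPM of each gene and 0.5 to that of Acta1. Coloured symbols are the 4 muscle-rich tumours and grey points the 20 other tumours. Atp2a1 follows Acta1 over the whole range, while Adipoq, Pecam1 and Ndufa4 show no slope that passed the test among the grey points.

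Muscle-rich tumours were not tied to a treatment by a test. With brequinar 1 of 12 tumours was muscle-rich, against 3 of 12 without it (two-sided Fisher's exact test, p = 0.59). With anti-PD-1 antibody 1 of 12 was muscle-rich, against 3 of 12 without it (p = 0.59, exact test), and both values were 0.59 when adjusted over the 2 tests. By group these were 0 of 6 BRQ+PD-1 tumours, 1 of 6 BRQ+IgG2a tumours, 1 of 6 PD-1 tumours and 2 of 6 IgG2a tumours. With 4 muscle-rich tumours the smallest p this test can give is 0.0932, so it could not have passed the threshold.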

How the data were processed

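RNA of 24 tumours was sequenced in 4 treatment groups of 6. The authors deposited raw counts per gene for each tumour. Per the submitters' processing notes the reads were handled with HISAT2 2.2.1, StringTie 2.2.1 and Trim Galore 0.6.7, with MultiQC 1.11 and FastQC 0.11.8, on build GRCm39. The sources used here name neither the counting tool nor the annotation nor the use of strand, so genes that overlap on opposite strands cannot be told apart. Library totals were 19106205 to 34282319 counts. Of 55414 genes, 52081 had a symbol. No replicate pair of 60 agreed within sampling noise, with a lowest chi-square of 9.89 per gene.

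CPM were computed from the deposited counts and each library total. A tumour was muscle-rich with Acta1 above 1000 CPM. Differences and standard errors come from edgeR 4.0.16 in R 4.3.3 (quasi-likelihood F test, TMM factors, robust dispersion, filterByExpr, treatment group as covariate), with Benjamini-Hochberg adjustment over all genes and a call at 0.05. Standard errors are the size of the log2 fold change over the square root of F. The slope on Acta1 was fitted in the 20 other tumours per log2 unit of Acta1 CPM with 0.5 added. Tests were checked on simulated counts. Alternatives used DESeq2 1.42.0 and limma 3.58.1.

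The tumours and the 39 gene lists were chosen with earlier results of these data known. Named genes were the 4 markers, the 3 muscle-list members with the highest mean CPM, every myosin heavy chain, up to 3 called members of each other list by adjusted p (the 2 most abundant where none was called), and the 10 highest and 10 lowest called genes in no list with a mean of at least 1 CPM, beside the cell type markers, and some genes that the rule names are not reported here. Others are said to have been picked out after their values were seen, which also holds for Dhodh, Aqp1, Vwf, Car3, Clec3b, Mkx, Ly6c2 and the S phase and hypoxia genes with a slope. Deposited tables of normalized values held only part of the genes in the form used here and were not used.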

Additional observations from a re-analysis of the deposited data

Results flagged for a closer look

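Within the 4 muscle-rich tumours, 1 tumour stood far from the other 3 in 6 of 39 list sums and in 14 of 152 genes checked, by Dixon's criterion of the gap over the range of the 4 values at its 95% critical value. Chance alone sets apart about 1 in 20 groups. In 9 of the 20 cases the tumour was IgG2a replicate 3, the one with the most Acta1.

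IgG2a replicate 3 was high in the summed citrate cycle list, at 3203 CPM, and in Des at 2272 CPM, Ryr1 at 1222 CPM, Ano5 at 82.9 CPM, Kcnc4 at 47.4 CPM and Ucp3 at 4.86 CPM. It was low in the summed antigen presentation list, at 5294 CPM, in the interferon gene Oas2 at 8.98 CPM and in the T cell adaptor gene Lat at 1.8 CPM.

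PD-1 replicate 6 was high in the B cell gene Cd79a at 13.6 CPM, the chemokine gene Cxcl5 at 13.8 CPM and the fat cell gene Plin1 at 8.01 CPM. It was low in the summed lists of the neuromuscular junction, at 643 CPM, and of the clock, at 464 CPM.

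IgG2a replicate 2 was low in Myh2 at 7.91 CPM, in Clec3b at 2.55 CPM and in the summed endothelium list at 1819 CPM. It was high in the summed hypoxia list at 1368 CPM, and it was the sole muscle-rich tumour with counts of Nefl, at 0.069 CPM. BRQ+IgG2a replicate 4 was high in Col6a3 at 1338 CPM.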

How the results depend on the processing

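Of 16656 genes 2943 were called, 63.5% of them higher. RLE factors, no expression filter, DESeq2, limma voom, no treatment covariate, a fit without robust dispersion, a filter by treatment group, library sizes without the muscle genes, log2 Acta1 as a number, and leaving out the 3 other tumours above 100 CPM (an alternative chosen after seeing the data) gave 2663 to 3314 calls. DESeq2 gave no adjusted p for 116 genes, among them all 14 of the thick filament list and 18 of 20 of the Z-disc list, and these are not lost calls. The share called higher was 72.6% with no expression filter. The count was 1713 (1206 higher, 507 lower) among IgG2a tumours only, 1242 (1098 higher, 144 lower) among PD-1 and BRQ+IgG2a tumours only, where fewer tumours enter, and 1436 (1026 higher, 410 lower) with Acta1 above 100 CPM as the rule. Leaving out 1 tumour gave 1468 to 3282, the lowest without PD-1 replicate 6. The slope on Acta1 was called in 239 genes, in 784 with DESeq2 (429 higher, 355 lower), and in 82 to 449 with 1 tumour left out, and the cause was not tested.

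Replicate numbers did not pair the tumours. Over 36 pairs with the same number in different groups the correlation of deviations had a median of -0.021, and 1 tumour was closest to its own number. With the replicate number as a block 2311 genes were called (1517 higher, 794 lower), and the slope in 82 (80 higher, 2 lower, Bnip3 not among them). No list median moved by more than its spread when muscle genes were taken out of the library sizes, and the Fisher tests gave p = 1 at 100 CPM (exact test).

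Changes of sign were seen only in genes that were not called. Among PD-1 and BRQ+IgG2a tumours only, log2 fold changes were 0.026 for Atp2a2, 0.112 for Mitf, -0.095 for H2-K1, 0.082 for Top2a and 0.052 for Mki67, and among IgG2a tumours only -0.107 for Mcm4 and -0.165 for Mcm2. With limma voom they were 0.001 for Atp2a2, 0.053 for Mitf and 0.013 for Vwf, and with the replicate block 0.066, 0.215 and 0.064. H2-K1 was -0.026 without the treatment covariate. Top2a and Mki67 were 0.225 and 0.279 at 100 CPM, 0.025 and 0.028 with log2 Acta1 as a number, and 0.020 and 0.017 without the 3 tumours above 100 CPM, and Dhodh 0.005 with log2 Acta1. With 1 tumour left out Atp2a2 ran from -0.087 to 0.086, Mitf from -0.11 to 0.13, Top2a from -0.11 to 0.048, Mki67 from -0.15 to 0.049, Mcm2 from -0.031 to 0.231, Vwf from -0.213 to 0.113 and Dhodh from -0.11 to 0.014.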

Other observations

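Hoxc10, Hoxa10 and Hoxa9, position genes of the HOX clusters that differ between tissues along the body axis, were higher in the muscle-rich tumours. They were singled out after their values were seen. Hoxc10 stood at 12.7, 12.6, 7.62 and 8.01 CPM in the muscle-rich tumours (in the order IgG2a replicate 2, IgG2a replicate 3, PD-1 replicate 6 and BRQ+IgG2a replicate 4), against a lowest, median and highest of 0.737, 1.21 and 2.33 CPM in the other tumours (log2 fold change 2.77 ± 0.21 SE, edgeR adjusted p = 2e-09). Hoxa10 stood at 3.62, 1.84, 3.42 and 3.97 CPM in muscle-rich tumours, against 0.424, 1.06 and 1.81 CPM in the other tumours (1.78 ± 0.25 SE, edgeR adjusted p = 1.5e-05). Hoxa9 stood at 1.35, 1.4, 2.37 and 1.62 CPM in muscle-rich tumours, against 0, 0.276 and 0.777 CPM in the other tumours (2.49 ± 0.50 SE, edgeR adjusted p = 0.00096). All 3 calls held in each of the 24 fits that left out 1 tumour, and the groups did not overlap, while the calls of Hoxa10 and Hoxa9 were lost among the IgG2a tumours alone. None of the 3 had a slope on Acta1 among the other tumours that passed the test, with edgeR adjusted p = 0.65, 0.71 and 1.

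Among the other tumours, Gem, a small GTPase, fell with Acta1 by a slope of -0.19 ± 0.04 (edgeR adjusted p = 0.017), a call lost without BRQ+IgG2a replicate 1 and without BRQ+PD-1 replicate 2. It stood at 25.2, 12.2, 9.84 and 32 CPM in muscle-rich tumours, against 15, 39.7 and 105 CPM in the other tumours, a difference that missed the threshold (-1.11 ± 0.46 SE, edgeR adjusted p = 0.1).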
